A study of Mus musculus with 2 samples.

Results

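The Hedgehog genes described here are Shh, Ptch1, Smo, Gli1, Gli2, Gli3 and Hhip, 7 of the 27998 genes in the count tables, chosen by symbol and all present in the tables of both mice. They were followed in single cells of the epidermis of 2 male Chrm3 KO C57BL/6J mice at postnatal day 0, each mouse giving a single library (called KO mouse 1 and KO mouse 2). Chrm3 encodes the M3 muscarinic acetylcholine receptor, and both mice carry its knockout. The epidermis had been separated from the dermis after an overnight incubation, so dermal cells are those left after the split. No wild-type (WT) library was analysed here, and every value is a level in KO skin.

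Hedgehog signaling runs from a sending cell to a responding cell. Without ligand, the receptor Ptch1 holds back the membrane protein Smo. When Shh binds Ptch1, Smo becomes active at the primary cilium and the Gli transcription factors switch on targets, among them Gli1, Ptch1 and Hhip, so that the level of these targets reads out the response; Hhip binds the ligand and limits its spread. In developing skin, Shh made in the follicle epithelium drives growth of the follicle and of the dermal papilla, the cluster of dermal cells at its base.

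On GRCm38 (mm10), with GENCODE M21 positions, Shh lies on chromosome 5 from 28456815 to 28467256 and Ptch1 on chromosome 13 from 63508328 to 63573598, both on the minus strand. Gli1 (chromosome 10, 127329882 to 127341974), Gli2 (chromosome 1, 118834132 to 119053619) and Hhip (chromosome 8, 79965851 to 80058006) are also on the minus strand. Gli3 (chromosome 13, 15463235 to 15730026) and Smo (chromosome 6, 29735503 to 29761365) are on the plus strand. All 7 genes are protein coding. The annotated A930032L01Rik overlaps Ptch1, Gm48343 overlaps Gli3 and Gm13717 overlaps Smo on the same strand, so reads from the shared stretches cannot be assigned to 1 gene.

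RefSeq promoters on GRCm38.p6 were found for 5 of the 7 genes. The 250 bases before the start of Ptch1 (chr13:63565736-63565985, minus strand) and of Hhip (chr8:80058009-80058258, minus strand) are shown because these targets were highest in the same dermal-like cells and diverged elsewhere. Both read 5′ to 3′ in the direction of the gene, and capitals mark the GC box (GGGCGG, either strand).
Ptch1: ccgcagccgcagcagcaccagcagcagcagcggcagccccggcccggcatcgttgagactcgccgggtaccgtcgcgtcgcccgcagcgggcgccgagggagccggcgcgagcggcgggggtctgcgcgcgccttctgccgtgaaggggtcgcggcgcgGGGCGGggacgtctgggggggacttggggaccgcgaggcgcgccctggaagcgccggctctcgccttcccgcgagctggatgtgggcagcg
Hhip: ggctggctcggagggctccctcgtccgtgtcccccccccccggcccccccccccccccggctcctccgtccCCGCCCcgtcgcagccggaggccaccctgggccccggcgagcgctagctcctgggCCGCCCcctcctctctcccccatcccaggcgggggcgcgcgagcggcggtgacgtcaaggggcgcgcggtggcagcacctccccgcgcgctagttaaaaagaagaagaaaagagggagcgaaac
The Ptch1 stretch lies inside the annotated gene, whose outermost start is farther upstream. The GC box occurred 1 time in the Ptch1 stretch and 2 times in that of Hhip, and 32.7% of 32851 promoters of that length held it. The Gli consensus GACCACCCA, searched on both strands with up to 1 mismatch, was found in 0 of the 5 promoters and in 5.79% of all promoters. These letters are therefore not in these windows, which says nothing about other regions of the genes.

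The filter left 7607 cells in the first and 11881 in the second KO library, with medians of 10480 and 10577 unique molecular identifiers (UMIs) per cell. A UMI marks 1 captured transcript, and levels are given as counts per 1e6 UMIs of the same cells (CPM). They count 3′ ends and are compared between cells, not between genes. Clustering without the 7 genes and without the other pathway genes gave 24 clusters, named only from marker lists. Of kept cells, 34 barcodes occurred in both libraries and 580 cells (2.98%) were called as doublets. Langerhans-like and T cell-like cells, which belong to other lineages, serve as a guide to the level that free RNA or doublets can add. That they express none of the 7 genes was not tested, and 10.1% of the Langerhans-like cells were called as doublets. Chrm3 itself had 13 and 19 UMIs in the kept cells, which tells nothing of the part of the gene deleted.

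Shh was concentrated in 3 follicle clusters. Cluster 8, resting follicle cells led by Fn1, Gxylt2, Fam13a and Sp5, had 770 and 1434 Shh UMIs in the libraries of KO mouse 1 and KO mouse 2. These correspond to 185 and 191 CPM, with exact Poisson intervals at 95% of 172 to 198 and 181 to 201 CPM. Cluster 15, a dividing follicle cluster that shares Sp5 and Fn1, had 160 and 154 CPM. Cluster 9, dividing cells with the hair keratins Krt28 and Krt35, had 54.7 and 38.2 CPM. These 3 clusters held 13.2% of the cells of either mouse and 89.8% and 84.5% of their Shh UMIs. Cluster 8 carried the matrix name through a mean marker enrichment of only 0.018 on the log2 scale, so it is called here by its leading genes.

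Not every cell of cluster 8 yielded a Shh transcript. With every cell thinned to 5000 UMIs and shallower cells left out (9 and 38 cells), 174 of 378 cells of cluster 8 in KO mouse 1 had at least 1 Shh UMI, which is 46.0% (exact 95% binomial interval 40.9 to 51.2%). In KO mouse 2 it was 330 of 665, or 49.6% (45.8 to 53.5%). Without thinning the shares were 60.5% and 63.4%. In thinned Langerhans-like cells 2 of 139 and 1 of 189 had a UMI, 1.44% and 0.529%, at median depths of 9639 and 9802 UMIs against 9963 and 9739 in cluster 8. The shares in resting basal interfollicular epidermis (IFE) keratinocytes (KCs), 0.239% and 1.00%, and in follicle progenitors, 0.586% and 0.952%, lie within the exact intervals of the Langerhans-like cells (0.175 to 5.10% and 0.0134 to 2.91%) and are read as background.

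Single cells of these clusters differed widely in Shh. Among positive cells of cluster 8 the median was 2.5 UMIs in KO mouse 1 and 2 in KO mouse 2, with at most 18 and 20 UMIs in 1 cell. In cluster 15, 6.98% and 4.95% of cells had 10 or more Shh UMIs, against 1.55% and 1.85% in cluster 8, at a higher median depth (15740 against 9803 UMIs). Merkel-like cells showed 56.6 CPM in KO mouse 1 and 0 in KO mouse 2, and all 8 UMIs came from 1 cell. Melanocyte-like cluster 17 had 7.45 and 12.7 CPM, and 42.3% of its cells were called as doublets. The small terminally differentiated cluster 20 had 22.4 and 8.61 CPM, from 12 of 110 cells. The part of mixed cells in these low levels was not tested. Of the other mammalian ligands, Ihh had 12 and 11 UMIs in all kept cells and Dhh had 8 and 14.

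**Figure D1:**
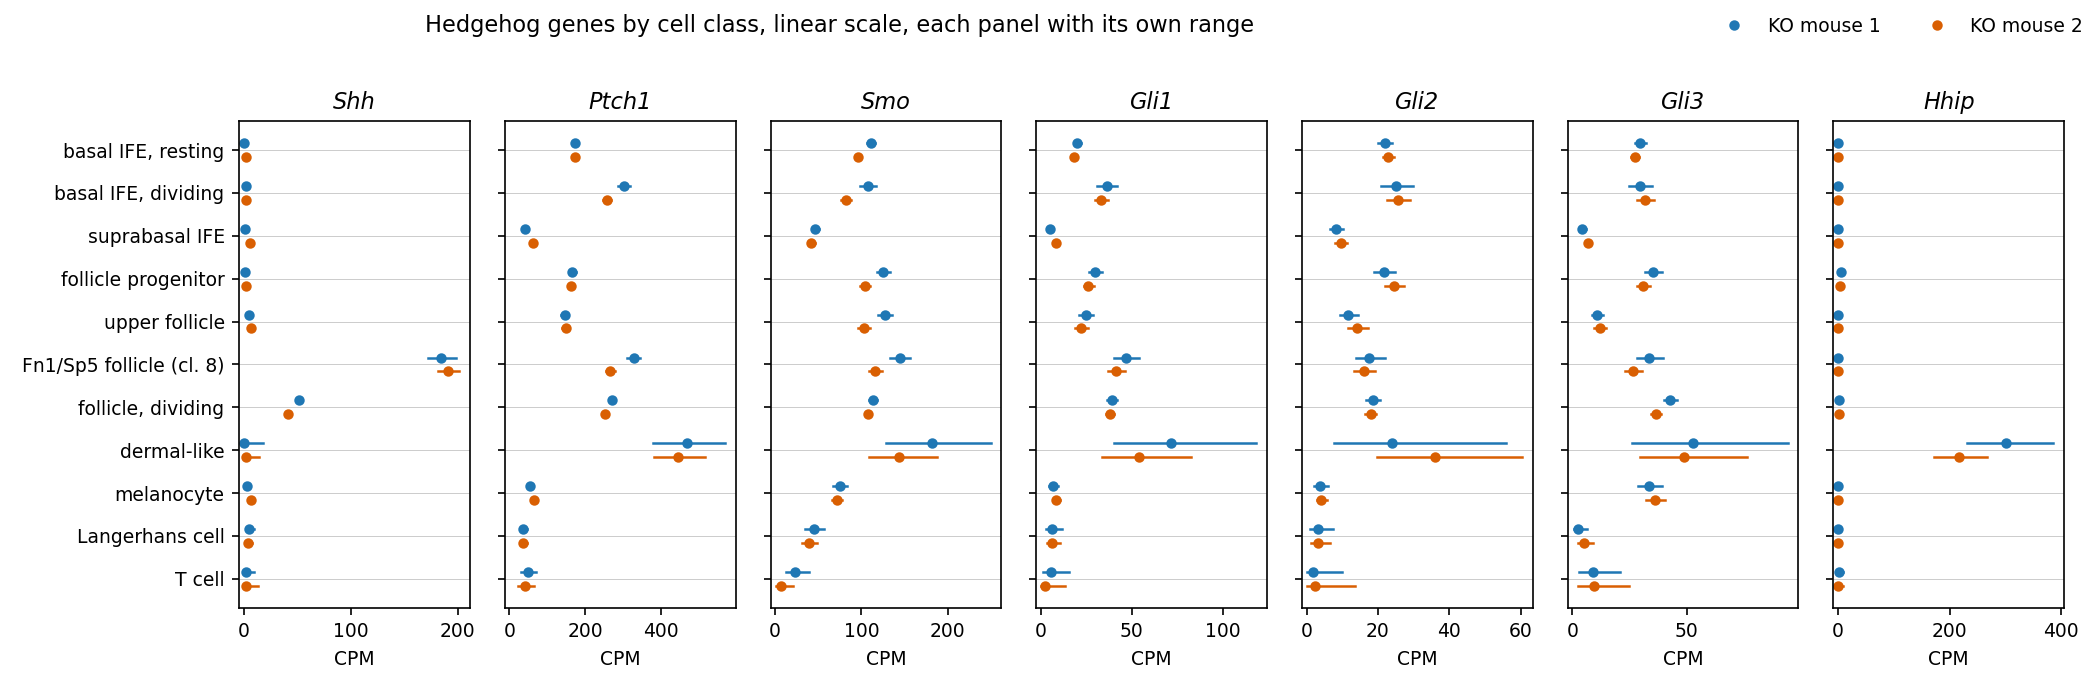
CPM of the 7 Hedgehog genes by cell class on linear axes that differ between panels; each point is 1 mouse and each bar its exact 95% Poisson interval. Shh stands out in cluster 8 (185 and 191 CPM), Hhip in dermal-like cells (301 and 216 CPM), and Ptch1 is low in suprabasal cells (42.4 and 62.4 CPM) and in Langerhans-like cells (35.4 and 37.2 CPM).

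Of the response genes, Ptch1 and Gli1 were spread far wider than the ligand. Ptch1 was highest in dermal-like cluster 21, at 469 CPM in KO mouse 1 and 447 in KO mouse 2, followed by basal IFE cluster 6 at 414 and 409 CPM. The interval in the dermal-like cells (381 to 571 and 383 to 519 CPM) includes the levels of cluster 6, so these neighbours in the order do not differ beyond counting error. Cluster 12, an unnamed cluster led by Tagln and Igfbp7, had 308 and 328 CPM. Shh-high cluster 8 had 328 and 266 CPM. Other resting basal clusters were far lower, with 93.9 and 88.9 CPM in cluster 0, 106 and 117 in cluster 2, and 91.5 and 102 in cluster 3. Langerhans-like cells had 35.4 and 37.2 CPM and T cell-like cells 48.3 and 41.1 CPM, at or above the level of suprabasal cluster 19 (11.4 and 25.6 CPM).

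Gli1, the Gli factor that is itself a target, was high and low in much the same clusters. It was 71.7 and 54.0 CPM in dermal-like cells, 51.0 and 53.0 CPM in cluster 15, 46.8 and 41.3 CPM in cluster 8, 38.1 and 40.0 CPM in dividing follicle cluster 1 and 40.3 and 34.6 CPM in cluster 6. In clusters 0, 2 and 3 it stayed between 12.2 and 15.2 CPM, and in Langerhans-like cells it was 6.33 and 6.05 CPM. The intervals of the dermal-like cells, 40.2 to 118 and 33.4 to 82.5 CPM, include the levels of clusters 15, 8 and 6 in the same mouse. Over the 24 clusters, log2(CPM + 10) of Ptch1 correlated with that of Gli1 at r = 0.971 in KO mouse 1 and 0.928 in KO mouse 2, and over the 17 keratinocyte and unnamed clusters at 0.958 and 0.951. With Shh, Ptch1 correlated at 0.326 and 0.299. The clusters of 1 mouse share a library, and the r values are a description.

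**Figure D2:**
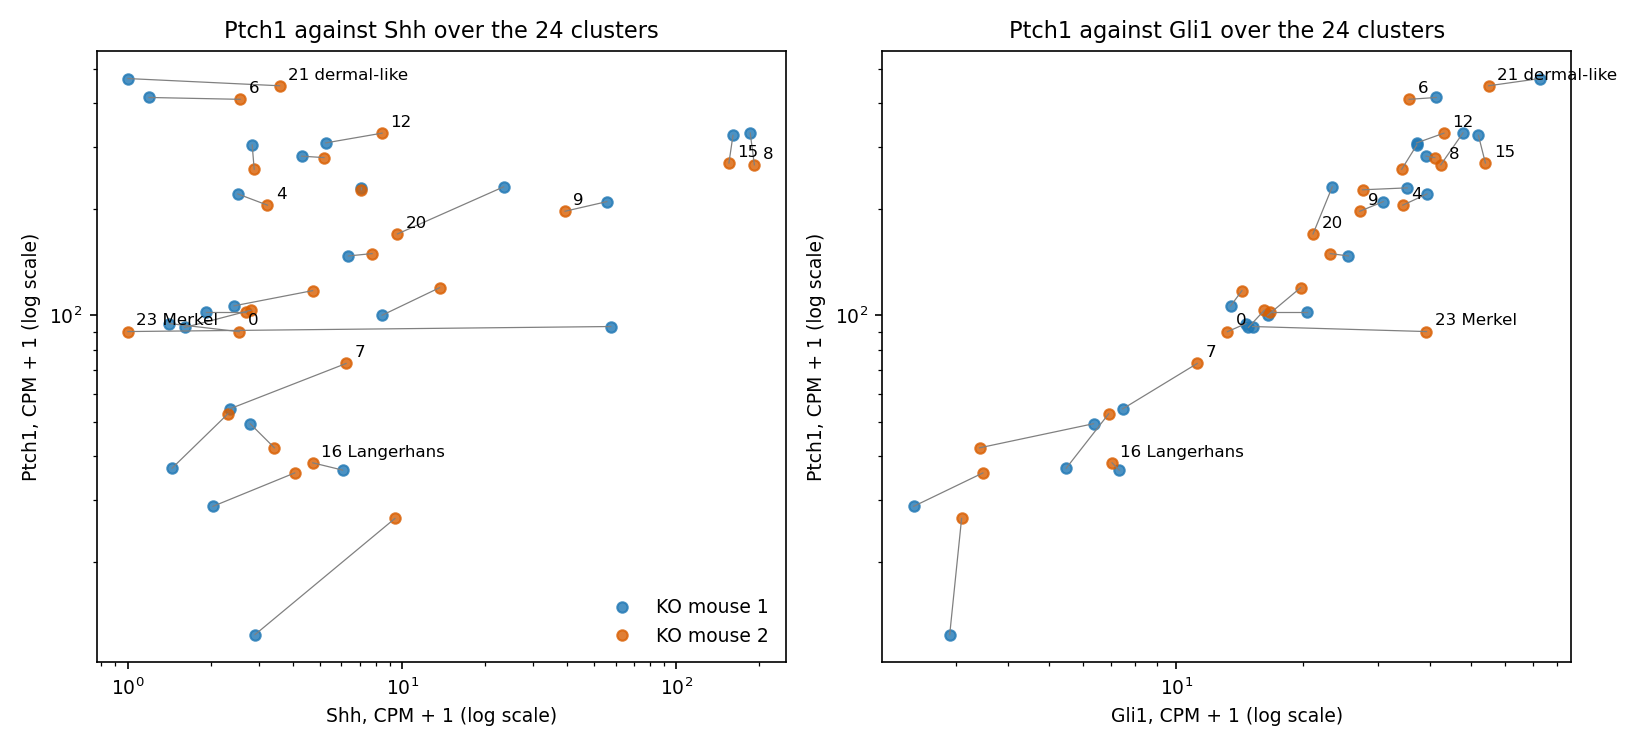
Ptch1 against Shh (left) and against Gli1 (right) over the 24 clusters, as CPM + 1 on log axes, with 1 point per cluster and mouse and a grey line joining the mice. Clusters 6 and 21 have Ptch1 above 400 CPM with Shh under 3 CPM, whereas clusters 8 and 15 are high in both.

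Cluster 6 therefore had high Ptch1 without ligand of its own. Its 1205 cells (443 and 762) were led by Pltp, Kif26a, Fbln2, Has3 and Fst. Ptch1 was detected in 79.1% and 82.3% of its thinned cells, against 33.9% and 30.2% in cluster 0 and 10.1% in Langerhans-like cells of both mice. Gli1 was detected in 21.1% and 16.4%, against 6.12% and 5.71% in cluster 0. Gli2, the main activator among the Gli factors, was 38.7 and 37.6 CPM, above every other cluster in both mice but within the interval of the dermal-like cells (23.9 and 36.0 CPM). Hhip had 0 UMIs in both mice, which allows up to 0.581 and 0.335 CPM. Its Shh was 0.194 and 1.56 CPM, below the Langerhans-like cells.

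The basal name of cluster 6 is weak. Krt14, the basal keratin, was 7470 and 8290 CPM against 16980 and 17910 in cluster 0, and the follicle factor Sox9 was 175 and 147 CPM, between cluster 0 (12.4 and 8.63) and follicle progenitor cluster 4 (330 and 256). Pcna, a replication gene, was 111 and 96.6 CPM, close to the dividing basal cluster 13 (113 and 109), whereas the proliferation marker Mki67 was 56.2 and 47.9 CPM against 590 and 508 in cluster 13. At a clustering resolution of 1.2, 59.5% of its cells were named basal IFE and 38.5% follicle progenitor. Each comparison with basal IFE was also made without cluster 6, which was picked as the basal cluster with the most Ptch1. Leaving it out lowers the basal Ptch1 level by that choice, so a Ptch1 call in this setting is no separate support. The same limit holds in part for Gli1 and Gli2, which were also higher in cluster 6 than in the other resting basal clusters.

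Hair follicle classes were compared with resting basal IFE over UMI sums per mouse and class, with p-values from edgeR's quasi-likelihood test, adjusted after Benjamini and Hochberg. The follicle side is the mean of 3 resting classes (progenitor, cluster 8 and upper follicle) on the log2 scale. The tested members played no part in the clustering, although the genes that did were read in these cells too. Shh was higher by 2.95 on the log2 scale (SE 0.37, adjusted p = 6.1e-06), and of the 3 classes cluster 8 had 185 and 191 CPM, the upper follicle 5.37 and 6.77 and the progenitors 1.25 and 2.01, against 0.606 and 2.06 in basal IFE. Gli1 was higher by 0.57 (SE 0.11, adjusted p = 0.00045). It was 29.8 and 26.2 CPM in progenitors, 46.8 and 41.3 in cluster 8 and 24.6 and 22.2 in the upper follicle. In basal IFE it was 19.9 and 18.4 CPM. The progenitors were not uniform in Gli1, as their cluster 5 held 3.38% and 2.49% of its UMIs with 4.51% and 3.98% of all UMIs. In the mean of the 3 classes, Gli2 fell by 0.49 (adjusted p = 0.00074) and Gli3, mainly a repressor, fell by 0.46 (adjusted p = 0.0024). These 2 higher and 2 lower calls of 7 stand against 18% and 18.1% of 13294 genes, 36% in all. With a mitochondrial limit of 5% Gli2 (adjusted p = 0.084) and Gli3 (adjusted p = 0.091) no longer passed. By class, Gli3 was 35.3 and 30.9 CPM in progenitors, 33.6 and 26.7 in cluster 8 and 10.7 and 11.9 in the upper follicle. Basal IFE had 29.7 and 27.4 CPM, so the fall of Gli3 came from the upper follicle. Gli2 in progenitors (21.6 and 24.6 CPM) was near basal IFE (21.9 and 22.8).

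Ptch1 did not pass in that comparison, at 192 and 185 CPM in resting follicle cells against 173 and 174 in basal IFE (log2 difference 0.05, SE 0.11, adjusted p = 0.78). Without cluster 6 the difference was 0.82 (adjusted p = 1.7e-05 in edgeR), which follows in part from leaving out the basal cells with the most Ptch1. In that setting the fall of Gli2 shrank to 0.17 and no longer passed (adjusted p = 0.21), which follows in part from leaving out the basal cluster with the most Gli2. Smo, which is needed in every responding cell, was 130 and 107 CPM in the follicle and 110 and 96.2 in basal IFE (log2 difference 0.10, SE 0.11, adjusted p = 0.52). Hhip was low on both sides and is described by its UMIs.

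In suprabasal IFE (clusters 7 and 19) Ptch1, Smo and the 3 Gli genes were lower than in basal IFE. Ptch1 went from 173 and 174 CPM in basal to 42.4 and 62.4 CPM in suprabasal cells, a fall of 1.52 on the log2 scale (SE 0.14, adjusted p = 7.8e-08). Gli3 fell by 2.13 (adjusted p = 7.4e-09), Gli1 by 1.24 (adjusted p = 2.6e-06), Gli2 by 1.12 (adjusted p = 2e-06) and Smo by 1.03 (adjusted p = 7.3e-06). Suprabasal Gli1 (5.27 and 8.52 CPM) and Smo (46.7 and 42.1) were near the Langerhans-like cells (6.33 and 6.05, and 44.9 and 39.1). Gli3 (4.38 and 6.77 against 2.5 and 5.1) lay within the exact intervals of the Langerhans-like cells (0.69 to 6.48 and 2.55 to 9.15 CPM). Gli2 (8.26 and 9.61 against 3.2 and 3.3) was above theirs (1.03 to 7.38 and 1.31 to 6.71 CPM). The part of free RNA in these suprabasal levels, which bears on the size of the falls, was not tested. For each of the 5 lower genes the suprabasal values of both mice lay below both basal values. Of 7 members 5 were thus lower, against 24.7% of all genes, and 1 was higher, against 23.9% (48.6% in either direction). Without cluster 6 the falls of Ptch1 and Gli1 were 0.75 and 0.77 and still passed. The higher one was Shh (log2 difference 1.59, adjusted p = 0.0072), at 1.49 and 5.90 CPM against 0.606 and 2.06; the Langerhans-like cells had 5.06 and 3.72 CPM, so it is not read as expression. The 110 terminally differentiated cells of cluster 20, which did not enter this comparison, did not share the low levels, with 231 and 169 CPM of Ptch1, 22.4 and 20.1 of Gli1, 51.2 and 43.0 of Gli3 and 106 and 78.9 of Smo. Most of these values were near those over all kept cells. There Ptch1 was 188 and 186.5 CPM, Gli1 25.8 and 25.1, Smo 104 and 92.9, and Gli3 lower at 29.0 and 27.5. Cluster 20 also had Shh at 22.4 and 8.61 CPM. The part of mixed or free RNA in its levels was not tested, so they are not read as a response of these cells.

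Outside the epithelium, dermal-like cells had the highest levels of the response genes Ptch1, Gli1 and Hhip. Whether these levels reflect a response to ligand was not tested. The 109 cells of cluster 21 (40 and 69) were led by Ebf1, Rspo3, Meg3 and Prrx1. Of the 16 dermal markers 14 were detected in both mice. Leaving out Vim, which Langerhans-like cells and melanocytes also express, the other 15 summed to 4611 and 3557 CPM, against 9.37 to 324 CPM in the other clusters. They included Corin (210.5 and 154 CPM), Alx4 and Rspo3, which mark the dermal papilla. The endothelial markers Cdh5 and Emcn and the mural marker Rgs5 were at 0, and the 5 markers of each list summed to 71.8 and 30.8 CPM (endothelial) and to 110.0 and 46.3 CPM (mural). In the other clusters these sums were 0 to 7.08 CPM (endothelial) and 0 to 261 CPM (mural). The endothelial sum was thus highest in cluster 21, and the part of endothelial RNA there was not tested. These cells were shallow, with a median of 4180 UMIs, 11 were called as doublets, and Krt14 was 2320 and 2586 CPM; the part of keratinocyte RNA in their levels was not tested.

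Hhip was far higher in these cells than elsewhere, although most of its UMIs came from other clusters. It had 63 and 84 UMIs there, which is 301 CPM (232 to 386) and 216 CPM (172 to 267), whereas resting basal IFE had 0.140 and 0.132 CPM. Next came follicle progenitor cluster 4, led by Sfrp1, Tbx1, Lgr5 and Sox9, with 10.4 CPM (7.85 to 13.6) and 5.28 CPM (3.85 to 7.06). The Shh-high cluster 8 had 0 UMIs in both mice, which allows up to 0.72 and 0.40 CPM. Because the dermal-like cells were 0.526% and 0.581% of all cells, they gave 32.1% and 38.9% of the Hhip UMIs, and clusters 1, 4 and 12 gave 56.1% and 47.2%. With cells thinned to 2000 UMIs, 43.6% (27.8 to 60.4%) and 29.4% (19 to 41.7%) of dermal-like cells had a Hhip UMI, against 0 of 145 and 0 of 193 Langerhans-like cells, which allows up to 2.07% and 1.55%.

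Against resting basal IFE, dermal-like cells were higher in Hhip, in Gli1 (log2 difference 1.24, SE 0.27, adjusted p = 0.0019) and in Ptch1 (0.97, SE 0.16, adjusted p = 0.00016). The fitted log2 difference of Hhip was 10.33 (adjusted p = 1.6e-11), and its size depends on the few UMIs of the basal side. These 3 higher calls of 7 compare with 12.4% of genes higher, and 0 lower calls with 14%. Without cluster 6 on the basal side the differences were 1.75 for Ptch1 and 1.71 for Gli1. The larger Ptch1 value follows from leaving out the basal cells with the most Ptch1. The larger Gli1 value follows in part from the same choice, because cluster 6 was also the resting basal cluster with the most Gli1. Against the mean of the 3 resting follicle classes Hhip (9.25, adjusted p = 1.1e-11), Ptch1 (0.93, SE 0.14, adjusted p = 7.5e-05) and Gli3 (0.86, SE 0.28, adjusted p = 0.032) were higher, 3 of 7 beside 11.6% of genes. That mean holds the upper follicle, low in Gli3 (10.7 and 11.9 CPM). The Gli3 intervals of dermal-like cells (26.3 to 94.15 and 29.4 to 76.3 CPM) include the progenitor levels (35.3 and 30.9). The call of Gli3 was lost with doublets left out (0.79, adjusted p = 0.058), while Gli1 (0.68, adjusted p = 0.057) passed with DESeq2's size factors (0.86, adjusted p = 0.020). Those size factors moved the median of all genes from -0.198 to 0.0 against basal IFE and the shares to 14.7% higher and 9.55% lower; against the follicle they gave 14.1% and 8.85% in place of 11.6% and 13%. Shh in dermal-like cells was 0 and 1 UMI, which was not enough to place it below the basal level.

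**Figure D3:**
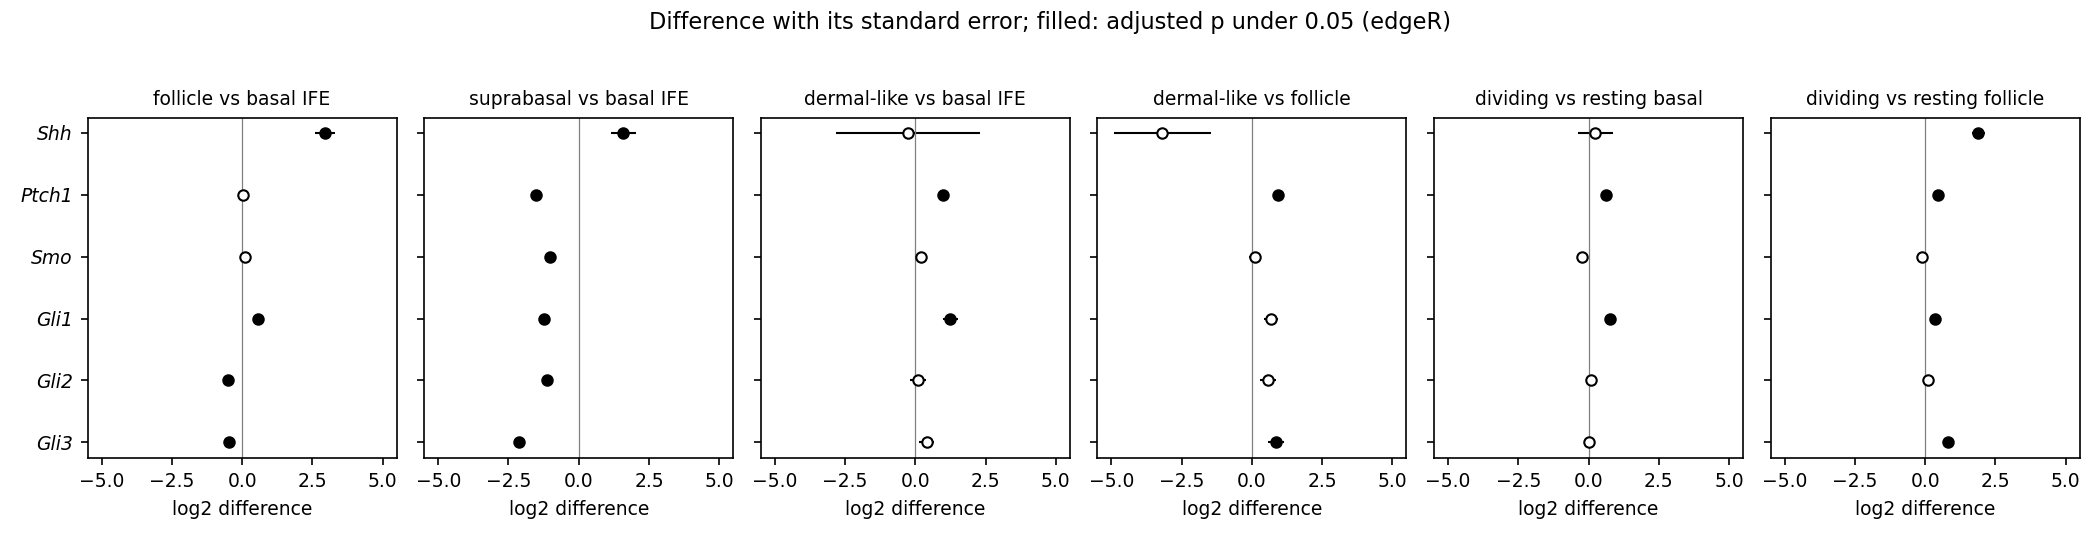
Log2 differences (points) with their standard errors (bars) for 6 Hedgehog genes in the 6 class comparisons; filled points passed an adjusted p of 0.05 in edgeR. Hhip is left out because 1 side of its comparisons held few UMIs. Ptch1 and Gli1 lie left of 0 in suprabasal cells (-1.52 and -1.24) and right of 0 in dermal-like and dividing cells.

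Ptch1 and Gli1 were called higher in the dividing cells of both compartments. In basal IFE, Ptch1 was 303 and 259 CPM in dividing and 173 and 174 CPM in resting cells (log2 difference 0.61, SE 0.13, adjusted p = 0.0036), and Gli1 was 36.1 and 33.2 against 19.9 and 18.4 CPM (0.77, SE 0.13, adjusted p = 0.00052). That is 2 of 7 higher beside 8.81% of genes and 0 lower beside 7.88%. The resting side includes cluster 6, which had more Ptch1 than the dividing basal cells in both mice, at the levels given above. Its Gli1 lay within the intervals of the dividing basal cells. Both calls are thus differences from the pooled resting cells, not from each resting cluster. With the mouse as a block 3847 instead of 2218 genes passed, and Smo was then lower (-0.23, adjusted p = 0.011). Without cluster 6 the differences grew to 1.39 for Ptch1 and 1.24 for Gli1, and Gli2 passed (0.42, adjusted p = 0.030). For Ptch1 this growth follows from leaving out the resting basal cells with the most Ptch1. Gli1 and Gli2 were also higher in cluster 6 than in the other resting basal clusters. The growth of Gli1 and the call of Gli2 thus follow in part from the same choice and are no separate support. In the follicle 5 of 7 were called higher beside 18.8% of genes, and 0 lower beside 18.9%. Gli3 was 42.7 and 36.5 CPM in dividing and 26.6 and 25.0 CPM in resting follicle cells (0.83, SE 0.10, adjusted p = 8.1e-06), Ptch1 was 273 and 252 against 192 and 185 CPM (0.45, SE 0.10, adjusted p = 0.0026), and Gli1 was 38.9 and 38.1 against 31.4 and 29.0 CPM (0.34, SE 0.10, adjusted p = 0.013). With a mitochondrial limit of 5% Ptch1 (adjusted p = 0.078) and Gli1 (adjusted p = 0.11) no longer passed. Shh (1.89, SE 0.23, adjusted p = 6.1e-06) and Hhip (2.50, SE 0.66, adjusted p = 0.0071) were called against the mean of the 3 resting classes, which weights them equally. Over the pooled cells Shh was 51.5 and 41.5 CPM in dividing and 39.4 and 51.4 CPM in resting cells, so that the mice went opposite ways, and Hhip was 2.15 and 1.64 against 3.03 and 1.66 CPM, lower in both; neither call is read as a gain with division. The same holds for Gli3, which was 41.5 and 34.9 CPM in dividing cluster 1 and 49.6 and 38.8 CPM in resting progenitor cluster 4, and which was low in the upper follicle (10.7 and 11.9 CPM). The dividing follicle sum pools clusters 1, 9 and 15, of which clusters 15 and 9 are high in Shh, and the comparison does not match them to their resting counterparts. Cluster 15 against cluster 8, as levels, was 323 and 270 against 328 and 266 CPM of Ptch1. Dividing cluster 1 held 16.7% and 15.9% of the Ptch1 UMIs with 11.2% and 10.6% of all UMIs. Resting cluster 4 held 6.50% and 6.29% of them with 5.55% and 5.73% of all UMIs. Relative to depth, Ptch1 was thus higher in cluster 1 than in cluster 4 in both mice, and alike in clusters 15 and 8. For Gli1, dividing cluster 1 held 16.5% and 16.8% of its UMIs with 11.2% and 10.6% of all UMIs. Resting cluster 4 held 8.23% and 7.62% of the Gli1 UMIs with 5.55% and 5.73% of all UMIs. Relative to depth, Gli1 was thus alike in KO mouse 1 and higher in cluster 1 in KO mouse 2. Cluster 15 had more Gli1 than cluster 8 in both mice, at the levels given above. The upper follicle was low in Gli1 (24.6 and 22.2 CPM). Because the sums pool unmatched clusters, the follicle call of Gli1 is not read as a gain with division.

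To compare senders with their neighbours, resting follicle cells thinned to 5000 UMIs were split by a Shh UMI, giving 189 and 353 positive and 1549 and 2118 negative cells. Of the positive cells 92.1% and 93.5% were in cluster 8, against 21.8% and 26.9% of all cells of the split. Ptch1 was 279 and 215 CPM in positive and 182 and 178 CPM in negative cells, and Gli1 was 52.9 and 37.4 against 29.4 and 26.8 CPM. Positive cells were thus higher in both mice, but in edgeR neither passed (Ptch1 0.38, SE 0.12, adjusted p = 0.063, and Gli1 0.57, SE 0.18, adjusted p = 0.063). Gli2 was 11.6 and 9.63 CPM in positive and 16.1 and 21.8 CPM in negative cells (-0.94, SE 0.30, adjusted p = 0.063). With the mouse as a block, 2780 instead of 1597 genes passed, and so did Ptch1 (0.37, adjusted p = 7.1e-06), Gli1 (0.57, adjusted p = 0.0040) and Gli2 (-0.99, adjusted p = 0.0033). That fit has 1 residual degree of freedom.

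Hhip had 0 UMIs in Shh-positive cells of either mouse and 29 and 26 in negative ones. It was the 1 of 6 tested members called lower, beside 8.53% of genes, and 0 of 6 were higher, beside 5.93%; its negative level, 3.74 and 2.45 CPM, is near the limit that a count of 0 allows in the positive cells. Within cluster 8 alone the order of Ptch1 was the opposite, with 282 and 214 CPM in Shh-positive and 347 and 310 CPM in Shh-negative cells, a log2 difference of -0.43 (SE 0.13, adjusted p = 0.22). Gli1 there was 55.2 and 40.0 against 46.1 and 44.2 CPM (0.02, SE 0.21, adjusted p = 0.99). Within the cluster 71 genes passed, and outside it 14 with 15 and 23 positive cells, where Ptch1 was 0.46 (adjusted p = 0.73). A cell without a Shh UMI at this depth may still express Shh, and its share cannot be given.

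Several receiving and releasing genes differed across this split. The coreceptor Gas1, which helps Ptch1 bind the ligand, was 33.9 and 41.9 CPM in positive and 188 and 214 CPM in negative cells (log2 difference -2.43, adjusted p = 4.3e-06). Within cluster 8 it was 14.9 and 29.7 CPM in positive and 49.0 CPM in negative cells of both mice. Most of the Gas1 gap therefore lay between clusters. Scube1 (log2 difference 4.2, adjusted p = 1.8e-06) and Scube3 (2.89, adjusted p = 1.9e-05), secreted proteins of a family that helps free the ligand from its source, were higher, and stayed called within cluster 8 (1.97, adjusted p = 0.0032, and 1.15, adjusted p = 0.032). The forkhead gene Foxe1 (-3.25, adjusted p = 0.0073) and Scube2 (-2.76, adjusted p = 0.017) were lower, and their values within cluster 8 are not given here.

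Outside the pathway, the 5 genes with the largest higher calls were Notum, which inactivates Wnt ligands, Thsd4, the potassium channel Kcnn2, the growth factor Fgf20 and Nes, an intermediate filament. Notum was 21.2 and 24.9 CPM in Shh-positive and 1.29 and 0.944 CPM in Shh-negative cells. The 5 with the largest lower calls, Myl9, Arhgap28, Wfdc18, Paqr6 and Tmem180, had 0 UMIs in the positive cells of both mice. Myl9, a myosin light chain, had 57 and 142 UMIs in the negative cells.

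Basal IFE cells were split by a Gli1 UMI, giving 192 and 301 positive and 1903 and 3287 negative cells after thinning to 5000 UMIs. The positive share was 9.17% and 8.39%, against 1.44% and 1.06% of Langerhans-like cells; the part of free RNA in the positive cells was not tested. Ptch1 was 297 and 306 CPM in Gli1-positive and 147 and 153 CPM in Gli1-negative cells (log2 difference 0.94, SE 0.10, adjusted p = 0.0039). It was the only member of 4 tested to pass, and 13 of 10833 genes (0.12%) were higher and 4 (0.0369%) lower. Gli2 was 42.7 and 33.2 against 20.1 and 22.5 CPM (0.73, SE 0.19, adjusted p = 0.28), and passed with the mouse as a block (0.71, adjusted p = 0.0056), where 468 genes did. Smo differed by -0.06 on the log2 scale (SE 0.12, adjusted p = 0.96). Gli1-positive cells came from cluster 6 in 48.4% and 40.2% of cases, against 21% and 20.6% of all cells of the split.

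Part of that difference lay between clusters. Within cluster 6, Ptch1 was 439 and 496 CPM in Gli1-positive and 384 and 415 CPM in Gli1-negative cells (0.21, SE 0.12, adjusted p = 1.0). In the other basal clusters it was 164 and 179 against 93.8 and 92.0 CPM (0.86, SE 0.12, adjusted p = 0.17), so both mice were higher in either set, but neither difference passed. In edgeR 0 genes passed in each of these smaller splits, with 292 and 332 genes at an unadjusted p under 0.05.

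**Figure D4:**
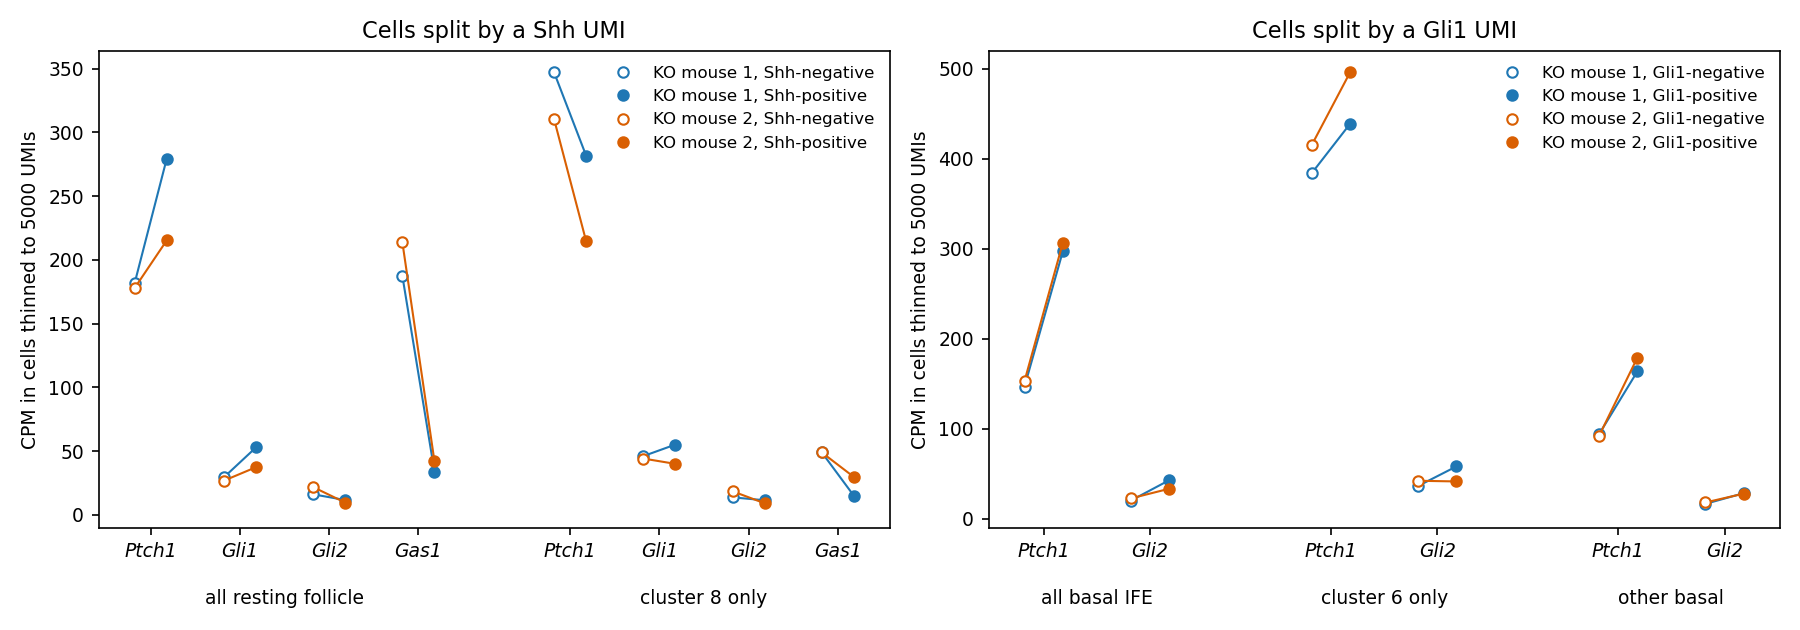
CPM in thinned follicle cells split by a Shh UMI (left) and thinned basal IFE cells split by a Gli1 UMI (right); open points are negative cells, filled points positive cells, and lines join the cells of 1 mouse. Ptch1 is higher in Shh-positive cells over all resting follicle cells and lower within cluster 8, and higher in Gli1-positive cells in each set of basal cells.

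Outside the pathway, Gli1-positive cells were higher in Lap3, an aminopeptidase (284 and 277 against 131 and 129 CPM, log2 difference 1.04, adjusted p = 0.0019) and the replication and chromosome genes Mcm3 (0.93, adjusted p = 0.035), 2810417H13Rik (0.93, adjusted p = 0.028) and Smc2 (0.84, adjusted p = 0.038). They were lower in genes that included Apoe, H19 and Postn, by 0.67 to 0.75 on the log2 scale. H19, an imprinted RNA that leads cluster 0, was 228 and 243 against 363 and 393 CPM. The follicle keratin Krt17 was higher by 0.59 (adjusted p = 0.029), and Mki67 had a difference of 0.55 (adjusted p = 0.51). Ccnd1, a cyclin and a target, was higher in both splits (0.59, adjusted p = 0.0087, for Shh, and 0.77, adjusted p = 0.029, for Gli1).

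The wider pathway list holds 32 other genes, of which 27 entered the class comparisons. In follicle against basal IFE 11 were higher and 7 lower, beside 18% and 18.1% of all genes, with a median of 0.17 against -0.00 for all genes. The largest were Scube3 (2.56, adjusted p = 9.1e-08), Foxe1 (2.53, adjusted p = 0.0016) and the target Mycn (1.5, adjusted p = 7.5e-07) upward, and the coreceptor Cdon (-2.73, adjusted p = 5.9e-10), Scube2 (-2.08, adjusted p = 2.8e-06) and Gas1 (-1.52, adjusted p = 4.7e-10) downward. In suprabasal against basal IFE 17 were lower and 1 higher (Foxe1, 1.46), beside 24.7% and 23.9% of all genes, with a median of -0.95 against -0.03 for all genes. All 3 coreceptors tested were among the lower ones, and the largest falls were Scube2 (-2.98), the cyclin Ccnd2 (-2.25) and Cdon (-2.24).

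In dermal-like cells against basal IFE 5 were higher and 4 lower, beside 12.4% and 14% of all genes. Scube1 was 115 and 113 CPM in dermal-like cells and 0.933 and 1.11 CPM in basal IFE (6.34, adjusted p = 3.4e-09), and Scube3 was 110 and 123 against 1.17 and 1.03 CPM (6.33, adjusted p = 7.7e-11). Bcl2, which guards against cell death, was higher by 2.08 (adjusted p = 6.6e-07). Lower were Ift88, a ciliary transport gene with 0 and 1 UMI in these cells, Cdon and Gas1 (-2.28, adjusted p = 6.2e-08). Against the follicle, where 11.6% of all genes were higher and 13% lower, 5 were higher, led by Scube1 (5.08), Scube3 (3.77) and Scube2 (2.69), and 6 lower, among them Ift88 (-3.66) and Mycn (-2.96).

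Among dividing basal cells 0 pathway genes were higher and 3 lower, beside 8.81% and 7.88% of all genes, namely Scube2 (-1.61, adjusted p = 0.0011), the acyltransferase Hhat (-1.39, adjusted p = 0.042) and Iqce (-0.76, adjusted p = 0.014). In the dividing follicle, with 18.8% of all genes higher and 18.9% lower, 9 were higher, led by Foxe1 (2.25), Scube1 (1.13) and Scube3 (1.01), and 4 lower, led by Bcl2 (-0.55), Gas1 (-0.48) and Spop (-0.34). In the Shh split 6 of 27 were higher and 5 lower, beside 5.93% and 8.53% of all genes, and in the Gli1 split 1 of 22 was higher and 0 lower, beside 0.12% and 0.0369%.

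Genes with the pattern most like a member's were ranked over the 24 clusters by r of log2(CPM + 10), taking the lower value of the mice, among 9496 genes. For Shh these were Ascl4 (0.938), Sp5 (0.928), 3632451O06Rik (0.916), Ica1l (0.850) and Gxylt2 (0.846). For Ptch1 they were the basement membrane collagens Col4a1 (0.958) and Col4a2 (0.946), then Gli1 (0.928), H2afy2 (0.903) and the glypican Gpc3 (0.881). For Gli1 they were Col4a1 (0.933), Ptch1 (0.928), Arhgef17 (0.919), Col4a2 (0.918) and Gpc3 (0.901). Smo was at rank 48 and Gli2 at rank 35 for Ptch1, while Shh was at rank 3186.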

How the data were processed

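Epidermal cells of 2 mice were measured by droplet single-cell RNA sequencing. The authors aligned reads with Cell Ranger 3.0.2 to mm10, per the submitters' processing notes, and deposited a table of raw UMI counts for each library, one value for each gene and called barcode; depth is given in the report. The labels name version 1 of the 3′ chemistry and the paper's methods version 3.1. The members and lists were chosen with earlier results of these data known.

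Barcodes were kept at 900 to 7700 detected genes and a mitochondrial share below 10%, log-normalized, integrated between mice and clustered in Seurat 5.3.0 (2000 variable genes, of which 1990 remained without the Hedgehog genes, 30 dimensions, resolution 0.8). Clusters were named from marker lists by the markers among 10 leading genes (2, or 1 backed by the highest enrichment), otherwise by mean log2 enrichment, with at least 3 enriched markers; these limits were set after the clusters had been seen. Names are "-like" throughout. Scrublet (scanpy 1.11.5) marked only 2 cells of KO mouse 1 by its own threshold, so the score of KO mouse 2, 0.2341, served for both (164 and 416 cells); doublets stayed in the main results.

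UMIs were summed per mouse and class and tested in edgeR 4.0.16 (TMM, filterByExpr and the quasi-likelihood F-test, with p-values adjusted after Benjamini and Hochberg): 18 sums, 13294 genes, 9 residual degrees of freedom. Cells split by a UMI were thinned to 5000 UMIs and fitted apart, with 4 sums and 2 residual degrees of freedom. SEs come from the fold change and F. Equal replicate numbers mark 1 animal. Over the class sums, not the splits, the difference between the mice correlated between classes at r from 0.0052 to 0.35 (median 0.096, 36 pairs). With the mouse as a block, edgeR's common coefficient of variation fell from 0.0926 to 0.0608 for the classes. It fell from 0.0926 to 0.0349 in the Shh split and from 0.0882 to 0.0222 in the Gli1 split. The main fits leave this pairing out. On simulated data with 200 genes changed by 2 on the log2 scale, the fit recovered 96.5% of them for follicle against basal IFE (12791 genes) and 54.5% for dermal-like against basal IFE (12804 genes). Apart from these changes, all classes were drawn from 1 mean per gene, with no mouse effect. The rates are therefore not those of members near 0 in most classes, such as Shh and Hhip. Intervals are exact, at 95%, and cover counting error only, as does the limit that a count of 0 allows (3 counts). Named were all 7 members, the 3 largest called pathway genes per direction, the 5 largest other calls of each split and the 5 genes most alike (at least 20 CPM in a cluster of each mouse). Some genes that this rule names are not reported here. Other columns of the tables were not used. DESeq2 1.42.0, R 4.3.3, Python 3.11.15 and matplotlib 3.10.9 were also used.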

Additional observations from a re-analysis of the deposited data

Results flagged for a closer look

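The fitted difference of Gli3 between dividing and resting cells differed between compartments; the follicle side mixes clusters that are not matched, with Gli3 at 41.5 and 34.9 CPM in dividing cluster 1 and 49.6 and 38.8 CPM in resting cluster 4. In the follicle the log2 difference of dividing against resting cells was 0.83 (42.7 and 36.5 CPM in dividing cells, 26.6 and 25.0 in resting cells), and in basal IFE it was 0.03 (29.6 and 31.9 against 29.7 and 27.4 CPM). The difference of these differences, an interaction term in edgeR over all genes, was 0.80 (SE 0.17, adjusted p = 0.015), and 3.75% of 13294 genes passed that test. The adjusted p was 0.19 for both Gli1 (-0.43) and Shh (1.65) and 0.71 for Ptch1 (-0.16).

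The barcodes that the filter removed (3209 and 3986) also held the 7 genes, each above the level that 3 UMIs would give. Shh was 36.3 CPM in KO mouse 1 and 34.7 CPM in KO mouse 2, against 20.9 CPM in the kept cells of both. Ptch1 was 200 and 161 CPM, against 188 and 186. Gli1 was 32.9 and 27.2 CPM, against 25.8 and 25.1. Gli2 was 14.6 and 14 CPM. Gli3 was 29.4 and 27.1 CPM. Smo was 125 and 109 CPM. Hhip was 1.22 and 1.14 CPM, against 2.06 and 1.45 in kept cells.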

How the results depend on the processing

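Of the 25 called member differences, 14 stayed the same under all alternatives run, where a moved single-mouse value also counts as a change. The 25 had 272 alternative values, of which 252 stayed the same and 10 lost the call. Another 10 (single mice, no test) moved by more than their spread, and 0 turned. That spread comes from the same single-mouse values, so most of these stay the same by construction and tell little. The mitochondrial limit of 5% changed counts of calls to 2458 for follicle against basal IFE, 4291 for suprabasal, 900 for dividing basal and 3030 for dividing follicle, with 12459 genes tested. With the replicate block, where the mouse is a term, the counts were 3847 for dividing basal IFE, 2780 for the Shh split and 468 for the Gli1 split, and the block changed no other call but those given above. DESeq2 gave 912 in the Shh split. In the Gli1 split it gave 26, no filter 155 and no thinning 108. Within and outside the Shh-high cluster the counts were 71 and 14, and within and outside cluster 6 of basal IFE 0 and 0; these cell sets, the thinning to 2000 UMIs and the comparisons without cluster 6 were chosen after seeing the data. Main counts were 4792, 6459, 2218, 5016, 1597 and 17. The causes were not tested. With 1 mouse left out no residual degrees of freedom remain, so members have values but no test and calls could not be counted. With 2 mice, p-values cover the spread between these animals only. The depth of 40 and 69 dermal-like cells limits what can be seen there.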
